A study of Mus musculus with 6 samples.

Results

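Sox genes encode transcription factors that bind DNA through a high mobility group box and fall into subgroups with different roles in the nervous system. Here 10 of them were followed: the SoxB1 genes Sox1, Sox2 and Sox3, the SoxB2 gene Sox21, the SoxC genes Sox4, Sox11 and Sox12, and the SoxE genes Sox8, Sox9 and Sox10. They were found by their symbol in the authors' deposited table of differential expression, where 9 of the 10 have a row among 15095 genes. Sox1 was not analysed here.

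The table compares polyA RNA of 3 Setd2-KO samples with that of 3 wild-type samples of neural progenitor cells (NPCs). Both came from HA36CB1 mouse embryonic stem cells (ESCs), a line that can be differentiated in culture, and the knockout removes the methyltransferase SETD2, which places trimethylation on histone H3 at lysine 36 along transcribed genes. Cells of both genotypes were grown without adhesion for 4 days without and 4 days with 5 uM retinoic acid, and RNA was taken at day 8. Per the study's methods the Setd2-KO line was made by genome editing in the same background as the wild type; the sources used here do not say how many clones the 3 knockout libraries represent, or whether the libraries of each genotype are separate differentiations, and p-values then reflect only the spread among these libraries, which could be technical.

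SoxB1 factors are known to hold neural progenitors in an undifferentiated state and to bind DNA with POU and Pax partners, and Sox21 is known to oppose them as a repressor. SoxC factors are known to act as cells leave the progenitor state and turn on neuronal genes. SoxE factors are known for the switch of progenitors to gliogenesis and for the neural crest, in which Sox10 is needed for peripheral glia and pigment cells and Sox9 also directs cartilage formation.

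For each gene the authors' deposited table gives the average level over the 6 libraries as log2 CPM (reads of a gene scaled to a common library size), a log2 fold change, and a p-value with its false discovery rate (FDR), and no value per library was used. Fold changes are those of Setd2-KO over wild-type NPCs. The authors' test, glmTreat of edgeR, asked whether a gene changed by more than an absolute log2 fold change of 1, and a gene was called at an FDR under 0.05. An FDR of 1 therefore does not show that a gene was unchanged. Library depths are unknown, and SDs could not be computed. An approximate standard error was recovered from each p-value and fold change, on a normal scale. It is an upper estimate in so far as the fit used heavier-tailed statistics. Among genes of high level it ran larger where the fold change was near 0, so its size does not rank the precision of genes. The deposited fold change used was shrunken toward 0. For Sox10, of low level and past the threshold, the error may therefore be too small. In bulk RNA, fewer cells of a type and less RNA per cell cannot be told apart. Neither the p-values nor these errors test whether a gene differed from 0.

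The labels name the cells embryonic stem cells as their source, whereas the sample titles name them NPCs. Per kb of annotated exon, the 15 progenitor genes chosen beside SoxB1 had average levels of 2.27 to 190 CPM per kb with a median of 19. The 16 genes of the neuronal list chosen beside SoxC had 1.88 to 267 with a median of 24.7. The 16 pluripotency genes had 0.0512 to 15.2 CPM per kb with a median of 0.815. The ranges overlapped, since Lin28a at 15.2 and Sall4 at 8.60 CPM per kb led the pluripotency genes and lay above or close to lower progenitor genes such as Fabp7 at 9.23, while Pou5f1 had 1.68 and Nanog 0.238 CPM per kb. By their medians the markers followed the titles.

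In all, 551 of the 15095 genes were called in the authors' deposited table (3.65%), of which 319 were lower (2.11%) and 232 higher (1.54%) in the Setd2-KO NPCs. Setd2 itself had a log2 fold change of -0.44 with an FDR of 1, and the level of its RNA does not check the genotype where an edited allele is still transcribed.

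The stretch of up to 250 bases before the annotated start of a gene was available for 6 of the 9 Sox genes, from RefSeq on GRCm38.p6. Those of Sox2, the SoxB1 gene that differed most between the genotypes, and of the 3 SoxC genes, whose log2 fold changes lay on both sides of 0, are printed here 5′ to 3′, with matches to any of 3 motifs on either strand in capitals. The motifs were the Sox core (ACAAAG or ACAATG), the octamer bound by POU factors (ATGCAAAT) and the CCAAT box (CCAAT), and no matches overlapped. They lie at chr3:34649745-34649994 on the plus strand for Sox2, and on the minus strand at chr13:28953700-28953949 for Sox4, chr12:27342719-27342968 for Sox11 and chr2:152398047-152398296 for Sox12.
Sox2: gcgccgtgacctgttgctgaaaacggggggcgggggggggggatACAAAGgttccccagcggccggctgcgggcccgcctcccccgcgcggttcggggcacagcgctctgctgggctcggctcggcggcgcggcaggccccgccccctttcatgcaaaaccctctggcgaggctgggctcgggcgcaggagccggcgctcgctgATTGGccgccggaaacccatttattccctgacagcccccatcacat
Sox4: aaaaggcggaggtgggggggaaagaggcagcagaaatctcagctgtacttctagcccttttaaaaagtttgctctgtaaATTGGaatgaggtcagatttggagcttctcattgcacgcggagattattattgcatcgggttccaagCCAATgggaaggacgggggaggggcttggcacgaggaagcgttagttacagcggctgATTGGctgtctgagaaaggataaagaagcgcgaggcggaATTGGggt
Sox11: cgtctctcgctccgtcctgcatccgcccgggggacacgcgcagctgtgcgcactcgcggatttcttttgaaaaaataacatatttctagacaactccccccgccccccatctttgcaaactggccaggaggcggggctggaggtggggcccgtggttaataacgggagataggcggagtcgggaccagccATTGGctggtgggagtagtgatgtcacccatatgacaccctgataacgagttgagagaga
Sox12: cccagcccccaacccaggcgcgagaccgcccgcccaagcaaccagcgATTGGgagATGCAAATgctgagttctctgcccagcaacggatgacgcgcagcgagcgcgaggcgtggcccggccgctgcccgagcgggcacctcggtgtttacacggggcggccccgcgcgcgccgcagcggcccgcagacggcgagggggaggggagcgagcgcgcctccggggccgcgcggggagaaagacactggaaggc

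The Sox2 window held 1 Sox core, 206 bases before the start, and 1 CCAAT box 46 bases before it. The Sox4 window held 4 CCAAT boxes, at 171, 104, 47 and 8 bases before the start, and the Sox11 window held 1 at 60 bases. The Sox12 window held 1 octamer at 195 bases and 1 CCAAT box at 203 bases, and the windows of Sox21 and Sox8 held none of the 3 motifs. Of 32851 promoters of the same length, 25.2% held a Sox core, 1.60% an octamer and 33.8% a CCAAT box. A match describes the letters only, and binding was not measured. The windows differed in base composition, with 50.8% G and C for Sox4, 58.0% for Sox11, 72.0% for Sox2 and 74.4% for Sox12.

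None of the 9 Sox genes was called in either direction, against the 3.65% of all genes, and none had an unadjusted p under 0.05, against 902 of all genes (5.98%). Their FDR was 1 throughout in the authors' deposited table. Of the 9 log2 fold changes, 5 lay below 0 and 4 above, with a median of -0.28, against a median of 0.01 over all genes, of which 49.2% lay below 0. The quartiles of all genes were -0.30 and 0.29, and Sox21, Sox3 and Sox12 lay between them. The approximate 95% interval lay inside an absolute log2 fold change of 1 for 8 of the 9, all but Sox10. It held 0 for Sox3, Sox12 and Sox8. The shares of all genes with such intervals were not computed, and the intervals do not test against 0. Since the recovered errors ran larger for genes near 0, whether an interval held 0 does not set these genes apart. Both Sox2 and Sox3 lay above 0, whereas the SoxC and the SoxE genes lay on both sides of it.

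**Figure D1:**
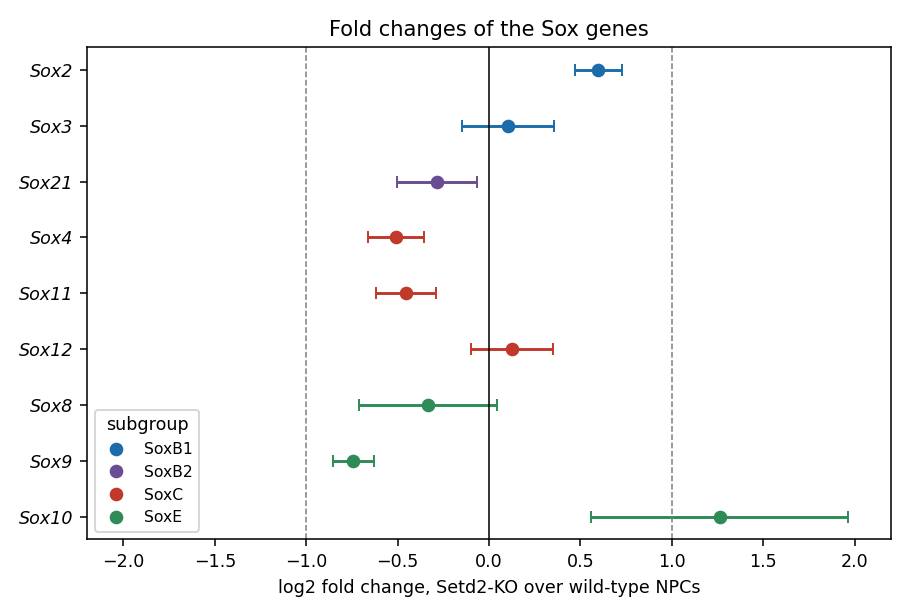
Log2 fold change of each Sox gene (x axis, Setd2-KO over wild-type NPCs), from the authors' deposited table, with genes down the page and colours for subgroups. Bars are approximate 95% intervals from the recovered standard error, and that of Sox10 may be too narrow. Dashed lines mark an absolute log2 fold change of 1. Sox2 lay highest of the well-measured genes at 0.60, Sox9 lowest at -0.74, and Sox10 at 1.26 had by far the widest bar.

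Levels of the Sox genes were compared with each other per length of exon. The average level per kb of annotated exon over all 6 libraries was 162 CPM per kb for Sox3 and 151 for Sox4, followed by Sox2 at 87.4 and Sox12 at 53.1. Sox9 followed at 21.5 CPM per kb, Sox11 at 8.63 and Sox21 at 6.23. Sox8 at 0.313 and Sox10 at 0.116 CPM per kb were the lowest of the 9. The order of the upper pair turned between the genotypes: Sox3 had a derived 168 and Sox4 124.8 CPM per kb in Setd2-KO NPCs, whereas Sox3 had 157 and Sox4 177 CPM per kb in wild-type NPCs. Which neighbours in this order differ beyond their spread cannot be said without values per library. In the annotation Sox2, Sox3, Sox21, Sox4, Sox11 and Sox12 each have 1 transcript of 1 exon, whereas the longest transcripts of Sox9 and Sox10 have 3 and 5 exons. Sox8 has 16 annotated transcripts whose exons together cover 5093 bases, its whole span, so its level per kb may be understated.

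**Figure D2:**
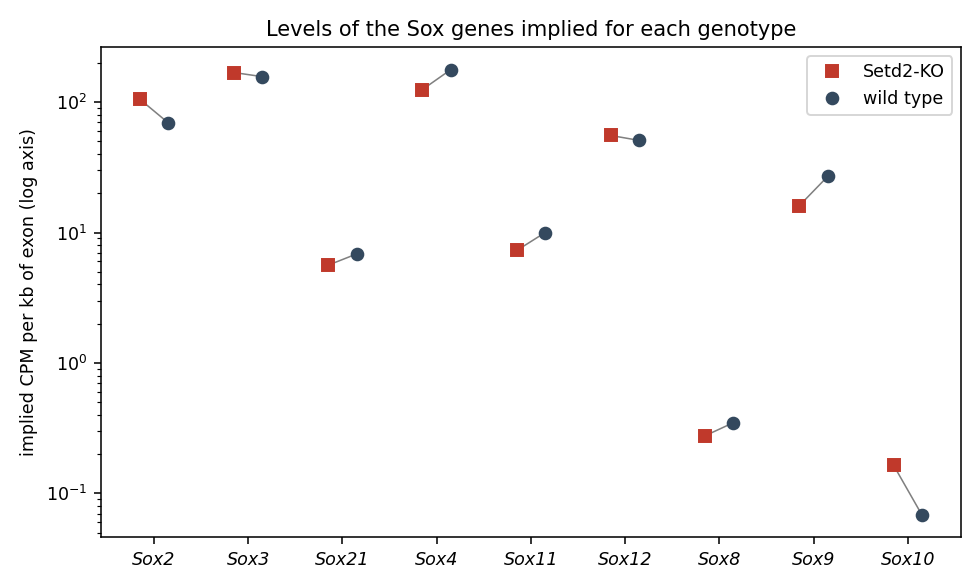
Level of each Sox gene in Setd2-KO NPCs (squares) and wild-type NPCs (circles), in CPM per kb of exon on a log axis. Each pair was derived from the average level and the fold change in the authors' deposited table and has no error bar, since no values per library were used; Sox3, Sox4 and Sox2 had the highest levels in both genotypes, with Sox4 above Sox3 in wild type only, and Sox10 had the lowest.

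Among the progenitor factors, Sox2 lay higher in the Setd2-KO NPCs, and the value of Sox3 was close to 0. Sox2, which keeps neural progenitors dividing and is also part of the pluripotency network, is a gene of 1 exon on chromosome 3 from 34704554 to 34706610 on the plus strand (GRCm39). Its level derived from the average and the fold change was 217 CPM in Setd2-KO NPCs and 143 CPM in wild-type NPCs. The log2 fold change was 0.60 with a standard error of at most about 0.066 (3 libraries per genotype) and an approximate 95% interval of 0.47 to 0.73. Of all genes 22.4% had a larger absolute log2 fold change, but only 9.76% of the 1096 genes within 0.5 log2 CPM of its level did. The whole of Sox2 lies inside the long noncoding gene Sox2ot on the same strand, which was not analysed here, and reads of the 2 genes in this span may not be separated.

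Sox3, which overlaps Sox2 in function in the neural tube and lies on chromosome X from 59934972 to 59937036 on the minus strand, had a derived level of 348 CPM in Setd2-KO NPCs and 323 CPM in wild-type NPCs. Its log2 fold change was 0.11 with a standard error of at most about 0.13 and an interval of -0.15 to 0.36, and the value was -0.11, on the other side of 0, once the median of the genes within 5 Mb was subtracted. Among the 488 genes of like level, 76.4% had a larger absolute log2 fold change. Xist, the noncoding RNA of X inactivation, was called higher (log2 fold change 5.24, FDR 3.6e-15), while the measured genes of chromosome X other than Sox3 had a median of 0.08; the part of X-linked differences in the value of Sox3 was not tested.

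The long noncoding gene Sox1ot, which spans Sox1 on the same strand (chromosome 8 from 12373650 to 12486768), had an average log2 CPM of 5.08 and a log2 fold change of -1.07 with an unadjusted p of 0.026 and an FDR of 0.49 in edgeR's glmTreat. It was not called. Whether reads of Sox1 are among its counts cannot be told apart.

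Sox21, the counterpart that represses SoxB1 targets, lies on chromosome 14 from 118470644 to 118474442 on the minus strand and stood at the middle of the table in average log2 CPM, with 50.0% of all genes below it. Its derived level was 21.4 CPM in Setd2-KO NPCs and 26.0 CPM in wild-type NPCs. The log2 fold change was -0.28 with a standard error of at most about 0.11 and an interval of -0.50 to -0.07. Its antisense partner Sox21os1, which overlaps its 5′ end, had a log2 fold change of 0.05. Sox21 thus lay slightly lower while Sox2, which it is known to oppose, lay higher, and the difference between the 2 values was not tested.

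Among the SoxC genes, Sox4 and Sox11 lay lower in the Setd2-KO NPCs by a similar amount, and Sox12 had a log2 fold change of 0.13. Sox4, on chromosome 13 from 29132902 to 29137696 on the minus strand, had a higher average log2 CPM, not scaled by length, than 99.2% of all genes. It had a derived level of 598 CPM in Setd2-KO NPCs and 849.8 CPM in wild-type NPCs. The log2 fold change was -0.51 with a standard error of at most about 0.078 and an interval of -0.66 to -0.35. The whole of Sox4 lies inside the long noncoding genes Gm61652, on the same strand, and A330102I10Rik, on the other. Neither was analysed here, and reads of these genes in its span may not be separated.

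Sox11, which acts beside Sox4 in newborn neurons, lies on chromosome 12 from 27384263 to 27392573 on the minus strand. It had a derived level of 60.5 CPM in Setd2-KO NPCs and 82.9 CPM in wild-type NPCs, with a log2 fold change of -0.45, a standard error of at most about 0.083 and an interval of -0.62 to -0.29. Among genes of like level 18.6% had a larger absolute log2 fold change than Sox11 and 22.9% a larger one than Sox4, so neither stood far out at its level.

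Sox12, known as the weakest activator of the SoxC genes, lies on chromosome 2 from 152235531 to 152239983 on the minus strand. Its derived level was 247 CPM in Setd2-KO NPCs and 226 CPM in wild-type NPCs, and its log2 fold change of 0.13 had a standard error of at most about 0.11 and an interval of -0.10 to 0.35. Its interval did not overlap those of Sox4 and Sox11, and the difference between these genes was not tested.

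Sox9 had the lowest fold change of the 9 genes. It is a factor of gliogenesis, neural crest and cartilage and lies on chromosome 11 from 112673009 to 112678586 on the plus strand. Its derived level was 67.2 CPM in Setd2-KO NPCs and 113 CPM in wild-type NPCs. The log2 fold change was -0.74 with a standard error of at most about 0.057 and an interval of -0.86 to -0.63, and its unadjusted p against a log2 fold change of 1 was 0.9998 in edgeR's glmTreat. Of all genes 15.5% had a larger absolute log2 fold change, and of the genes of like level only 5.42% did, the smallest share of any of the 9. The long noncoding gene BC006965, which overlaps Sox9 on the other strand, had a log2 fold change of -0.58 at an average log2 CPM of 0.85 and was not called. Whether strand was used in the counting is not stated, and reads of genes that overlap on opposite strands may be mixed.

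Sox8 and Sox10 had the lowest levels of the 9 genes, with 16.4% and 4.69% of all genes below them in average log2 CPM. Sox8, a SoxE gene of oligodendrocyte and neural crest development on chromosome 17 from 25784634 to 25789726 on the minus strand, had a derived level of 1.41 CPM in Setd2-KO NPCs and 1.78 CPM in wild-type NPCs, with a log2 fold change of -0.33, a standard error of at most about 0.19 and an interval of -0.71 to 0.04. Sox10, the gene of oligodendrocytes, Schwann cells and pigment cells on chromosome 15 from 79039108 to 79049469 on the minus strand, had a derived level of 0.545 CPM in Setd2-KO NPCs and 0.227 CPM in wild-type NPCs. Its log2 fold change of 1.26 was the only one of the 9 past 1 in size, with an unadjusted p of 0.089 and an FDR of 1 in edgeR's glmTreat. The recovered standard error was about 0.36 and the interval 0.56 to 1.96. For this gene the error may be too small and the interval too narrow, so 0 cannot be taken as left out. Of the genes of like level 13.0% had a larger absolute log2 fold change, so that a value of this size was not rare at this level.

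**Figure D3:**
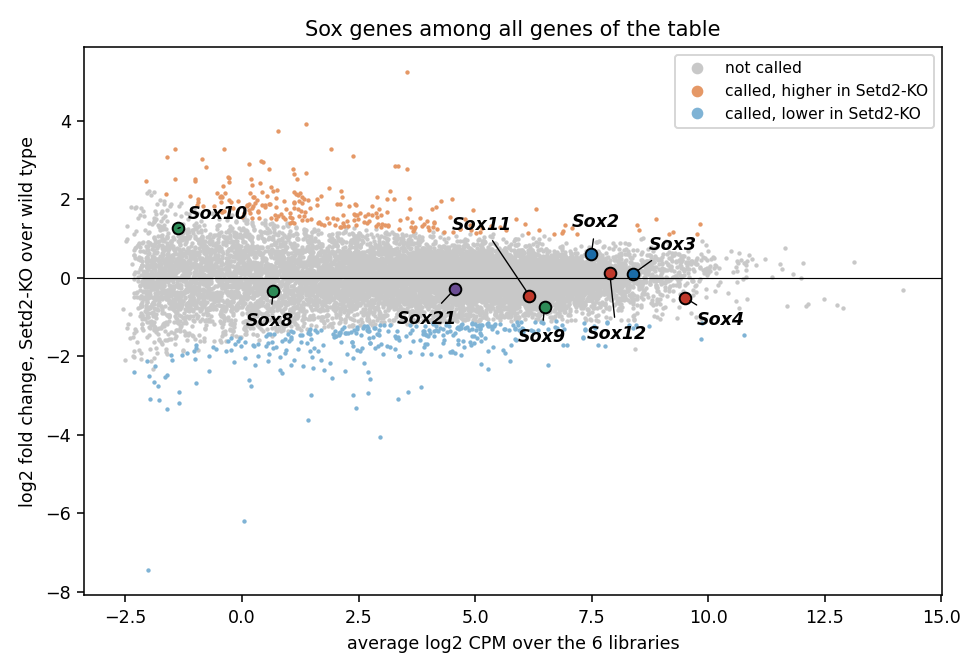
Log2 fold change (y axis, Setd2-KO over wild type) against average log2 CPM over the 6 libraries (x axis) for all 15095 genes of the authors' deposited table, with the 9 Sox genes marked by subgroup colour. All 9 lay inside the band of genes not called; Sox2 lay toward its upper edge and Sox9 toward its lower edge at their levels, and Sox10 lay at low level where the band is widest.

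The genes around each Sox gene were examined for shared values. Within 5 Mb, the number of other measured genes ran from 21 around Sox3 to 202 around Sox8, and the medians of their log2 fold changes lay between -0.08 around Sox10 and 0.25 around Sox4. Sox2 lay above its neighbours' median of 0.06 (47 genes). Sox9 lay below its neighbours' median of -0.02 (107 genes, none of them called). Sox4 and Sox11 lay below 0 while their neighbours' medians lay above it, at 0.25 (30 genes) and 0.13 (36 genes).

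Around Sox10, where the median was -0.08, 7 of 186 genes were called lower and none higher, against 2.11% and 1.54% of all genes. Around Sox21, 3 of 26 genes were called higher and none lower. The nearest measured gene after Sox21 is the transporter gene Abcc4, which was called higher with a log2 fold change of 1.24 (FDR 0.0047 in edgeR's glmTreat). The nearest measured gene before Sox4, the prolactin family gene Prl2a1, starts 1152 kb away. It had a log2 fold change of -2.11 with an FDR of 0.052 in edgeR's glmTreat and was not called. Within 5 Mb of Sox4, 1 of 30 genes was called lower and 1 higher. No other nearest measured neighbour was called, and several of these start far from the Sox gene. Around Sox2 they were Dnajc19 (0.35, 569 kb away) and Atp11b (-0.10, 1104 kb). Kcnj2 (-0.74) starts 1716 kb from Sox9, and Nrsn2 (-0.85) 6.8 kb from Sox12. The gene 2810468N07Rik, which starts 0.019 kb from Sox8, had a log2 fold change of 0.30, on the other side of 0 from Sox8.

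**Figure D4:**
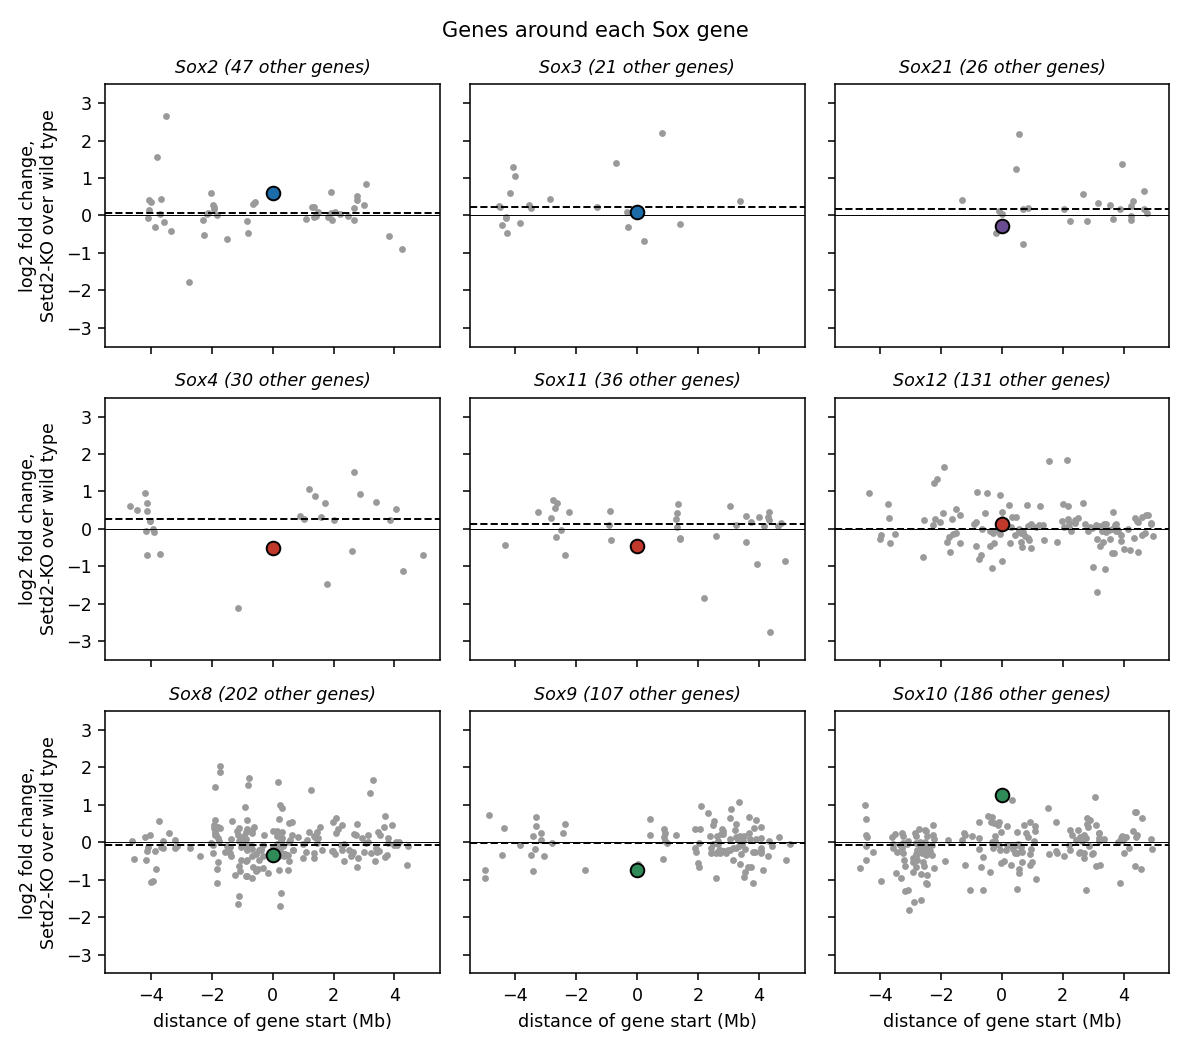
Log2 fold change (y axis, Setd2-KO over wild type) of the measured genes within 5 Mb of each Sox gene, against the distance of their start in Mb (x axis). Large coloured points are the Sox genes and dashed lines the medians of the other genes, which lay between -0.08 and 0.25; 1 gene of the Sox4 panel lay below the axis.

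Of 11 other entries of the Sox family, 8 had a row, and none was called. Their log2 fold changes lay between -0.52 for Sox5 and 0.57 for Sox30, with a median of -0.04. The highest CPM were those of Sox13 (0.15), the endoderm factor Sox17 (0.27) and the SoxD gene Sox6 (-0.30). The 8 were thus as evenly spread about 0 as the members, with 4 on each side.

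The partners and processes of each subgroup were counted in lists chosen by their known roles, but with earlier results of these data known. The share of all genes called (2.11% lower, 1.54% higher) served as background, and no test was run over a list. Genes said to have the highest CPM in a list were ranked without regard to length. Of 6 POU and Pax partners of SoxB1, 5 had a row and none was called. Their median was 0.42, with Pax6, which sets progenitor identity, at 0.74, Pou3f3 at -0.36 and Pou3f4 at 0.42. Of 15 progenitor genes, 2 were called lower and none higher, and their median was -0.03. The called ones were Fabp7, a fatty acid-binding protein of radial glia, with a log2 fold change of -2.91, and the endocytic receptor Lrp2 with -1.18. Those with the highest CPM, Vim (-0.03), Msi1 (0.01) and Ccnd1 (0.02), lay close to 0. Of the 15, 7 lay above 0 as Sox2 did and 8 below.

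Of 16 genes in the neuronal list chosen beside SoxC, 5 were called lower and none higher. Whether each gene of the list is confined to neurons was not examined. All 16 log2 fold changes lay below 0, with a median of -0.88, against 0.01 over all genes. The called genes were the RNA-binding protein gene Elavl3 (-1.28), the neurofilament gene Nefm (-1.21), the growth cone gene Gap43 (-1.32) and the adhesion genes Ncam1 (-1.30) and L1cam (-1.13). The 3 with the highest CPM were Tubb3 (-0.99), a neuronal tubulin that SoxC factors are known to activate, Stmn1 (-0.09) and Tead2 (-0.08), and none of these was called. Sox4 and Sox11 lay on the same side of 0 as this list, with smaller values than its median. These genes and the SoxC genes were measured in the same libraries, and the part of the share of neurons in either value was not tested.

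Of 22 glial genes chosen beside SoxE, 18 had a row, of which 3 were called higher and none lower, and their median was -0.14. The called genes were the oligodendrocyte lineage factors Olig1 (2.07) and Olig2 (1.76), which also mark progenitors of motor neurons, and the glutamate transporter gene Slc1a3 (1.28) of radial glia and astrocytes. Those with the highest CPM were Glul (0.19), Myrf (-0.71) and Slc1a3. The astrocyte marker Gfap was near the lowest level of the table (-2.54), with an average log2 CPM of -2.26, and Mag, Mog, S100b and Aqp4 were not analysed here. Of the 18 glial genes with a row, 10 lay below 0 as Sox9 did, and 8, the 3 called genes among them, lay above it.

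Sox8, Sox9 and Sox10 are also expressed in neural crest and Sox9 in cartilage, and Sox2 also in pluripotent cells, so markers of these were counted too. All 22 neural crest genes had a row, of which 2 were called lower, Pax3 (-1.84) and the neurotrophin receptor gene Ngfr (-1.95), and none higher. Their median was -0.24, and those with the highest CPM were Ednrb (-0.36), Pax3 and Kit (-0.64). Of 12 cartilage genes 8 had a row, of which Col11a2 was called lower (-1.30) and Matn3 higher (2.08). Their median was -0.15, and Col2a1, the cartilage collagen that Sox9 is known to activate, lay at 0.19 and Col11a1 at -0.50.

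Of 16 pluripotency genes, Tdgf1 was called lower (-1.97, FDR 0.027 in edgeR's glmTreat) and Utf1 higher (1.91). Tdgf1 lay at a low level, with an average log2 CPM of -1.52, below that of Sox10 at -1.37. The median of the 16 was 0.36, with Lin28a (0.39), Sall4 (0.71) and Klf4 (-0.42) having the highest CPM. Of the defining factors, Pou5f1 had a log2 fold change of 0.58 and Nanog one of -1.35 (FDR 0.30 in edgeR's glmTreat), and neither was called. Of 11 endoderm genes 10 had a row, of which 4 were called higher and none lower, namely Afp (2.78), Apob (1.55), Apoa1 (1.43) and Ttr (1.33). Their median was 0.90, the highest of the 9 lists, while the endoderm factors with the highest CPM here, Gata4 and Foxa1, had -0.96 and 0.82. The endoderm list summed to 130.7 CPM, and the part of these cells in the values of the Sox genes was not tested.

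**Figure D5:**
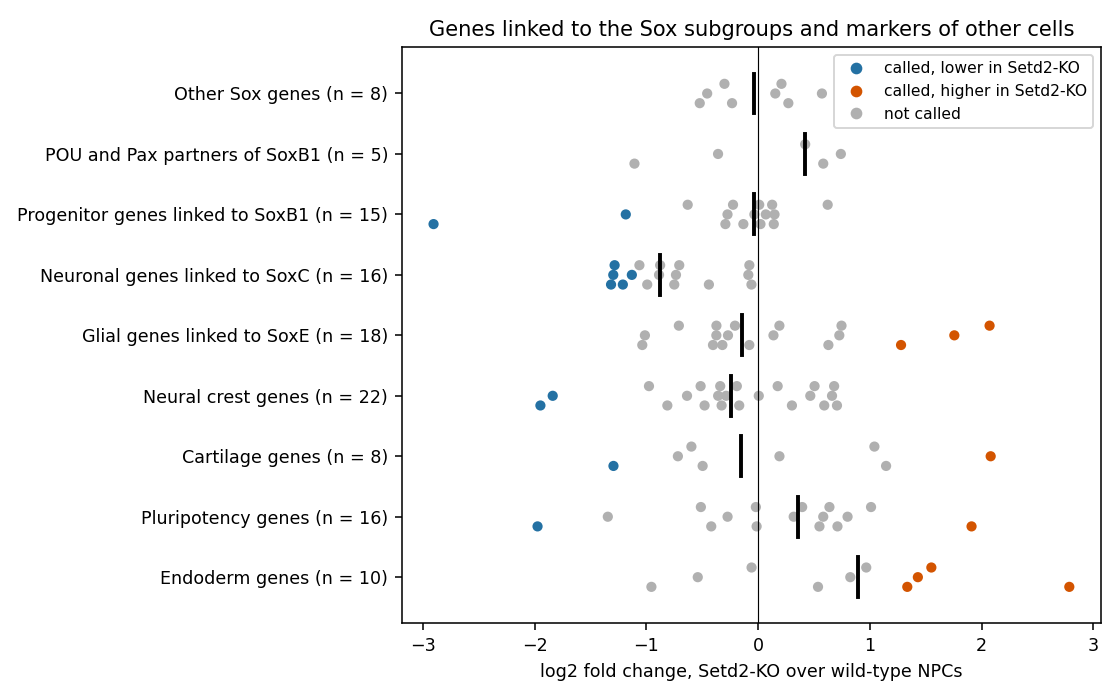
Log2 fold change (x axis, Setd2-KO over wild-type NPCs) of each measured gene of the 9 lists, with lists down the page, blue points for genes called lower, orange points for genes called higher and black bars for list medians. All 16 genes of the neuronal list lay left of 0 with a median of -0.88, and the endoderm list had the highest median at 0.90.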

How the data were processed

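PolyA RNA of 3 Setd2-KO and 3 wild-type NPC samples was sequenced by the authors from strand-specific libraries. According to the submitters' notes, the authors used STAR, Trim Galore and edgeR, and NCBIM37 (mm9) is listed with no role given, whereas the study's methods name GRCm39 and a later annotation; of the deposited gene IDs, 15053 of 15066 carry a lower version than in GENCODE vM39. Per the study's methods, the authors filtered low counts, scaled libraries by TMM and tested with a quasi-likelihood fit and glmTreat. The deposited table holds this comparison: log2 fold changes, an average log2 CPM, and p-values with their FDR, all computed by the authors. These columns are the authors' own results, used without per-library data, so that no other test could be fitted and library depths are unknown. A second, unshrunk log2 fold change was not used.

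The deposited sign runs as wild type over Setd2-KO and was turned, since the study's text states that Ncan, Myt1 and Uncx are lower in the knockout. Adjusting the 15095 p-values again by Benjamini-Hochberg returned the deposited FDR. The standard error was recovered by inverting the interval null of glmTreat under a normal approximation, and 95% intervals are 1.96 times it on each side. The inversion was checked on p-values simulated with the same normal formula. That tests its arithmetic and cannot show how close the errors are to those of the authors' fit. The level in each genotype was derived from the average log2 CPM and the fold change and is approximate. Positions and exon lengths are from GENCODE vM39 on GRCm39 by gene ID, and promoters are from RefSeq on GRCm38.p6. Eligible for naming were all Sox genes, Setd2, the genes overlapping a Sox gene and its nearest measured neighbours. So were the called genes of each list and its 3 highest by average log2 CPM. Not every overlapping gene or neighbour was named. Xist, Nanog, Pou5f1, Sox5, Sox30, Gfap and the unmeasured glial markers were named beyond this rule, after their values were seen. The Sox genes and the lists were chosen with earlier results of these data known. Alternatives were other FDR thresholds, the Benjamini-Yekutieli adjustment, an average log2 CPM of at least 0, protein-coding genes alone, subtraction of medians, windows of 2 and 10 Mb, and the longest transcript as length. Python 3.11.15, numpy 2.4.6, pandas 2.3.3, scipy 1.17.1 and matplotlib 3.10.9 were used.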

Additional observations from a re-analysis of the deposited data

How the results depend on the processing

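No paired analysis was possible because the table holds no values per library, and leaving out each replicate was not run for the same reason. The count of 0 Sox genes called was 0 as well at FDR thresholds of 0.01 and 0.1, at an unadjusted p under 0.05, under the Benjamini-Yekutieli adjustment, and over expressed or protein-coding genes alone. These settings could hardly have given another count. The smallest unadjusted p of the 9 was 0.089 (Sox10, edgeR's glmTreat), and their FDR lay far above 0.1. Subtracting the median of all genes, of the chromosome or of the genes within 5 Mb kept the direction of every Sox gene but Sox3, whose log2 fold change became -0.11 after subtraction of the median within 5 Mb; its approximate interval held 0. Of the list counts, that of the pluripotency genes was 1 at an FDR threshold of 0.01, against 2 at 0.05, since the FDR of Tdgf1 lies between. The median of the other Sox genes was -0.27 and that of the pluripotency genes 0.49 where genes under a log2 CPM of 0 were left out. The neighbours' median was 0.09 within 2 Mb of Sox3 and 0.08 within 10 Mb of Sox4. Library depths are unknown. The recovered standard errors were largest for Sox10 and Sox8, whose levels are the lowest of the 9 genes. They did not follow level alone, since Sox3, with an average log2 CPM of 8.39, had 0.13 and Sox21, at 4.57, had 0.11. Vim (log2 fold change -0.03, 904 CPM) had 0.12, whereas Tubb3 (-0.99, 859 CPM) had 0.040. Their sizes therefore do not rank the precision of the genes. The smallest absolute log2 fold change called in the authors' deposited table was 1.09.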
